A study of Mus musculus with 6 samples.

Results

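The genes described here are the colony-stimulating factors and their receptors, 8 genes chosen by symbol from the 54532 genes of the deposited table. They are the ligand genes Csf1, Csf2 and Csf3 and the receptor genes Csf1r, Csf2ra, Csf2rb, Csf2rb2 and Csf3r. RNA was sequenced from 6 libraries of primary macrophages from WT mice. Of these, 3 were pretreated with rmMETRNL for 6 h and 3 received vehicle, and all 6 were then exposed to the yeast Candida albicans for 6 h. METRNL is meteorin-like, a secreted protein. Since all 6 libraries were exposed to Candida, the response to the yeast itself is not compared here. Strain, age, sex, the tissue the cells came from, the dose of rmMETRNL and the nature of the vehicle are not given in the labels, and neither is whether the libraries of a group stem from different mice or different dishes. If they do not, the p-values describe technical spread only. The table's short column names were read as rmMETRNL and vehicle from their letters, and every direction below rests on that reading.

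Colony-stimulating factors are secreted proteins that keep myeloid cells alive, drive their growth and prime them against microbes. CSF1 (M-CSF) is the survival factor of macrophages and acts through the tyrosine kinase receptor CSF1R. CSF2 (GM-CSF) binds a specific alpha chain, CSF2RA, which signals together with a common beta chain through the kinase JAK2 and the transcription factor STAT5. Mice carry a second beta chain gene, Csf2rb2, whose product works with the interleukin-3 receptor. CSF3 (G-CSF) raises neutrophil output and acts through CSF3R. Macrophages that meet microbes are a known source of CSF2 and CSF3, and the mRNAs of these cytokines are short-lived because of AU-rich elements in their 3′ ends.

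The libraries held between 13235001 and 18145733 reads, recovered as whole numbers from the FPKM values (fragments per kilobase of gene, scaled to library size by the authors). All 10 listed macrophage markers reached a mean of 1 FPKM, the minimum for testing, and summed to 9384 to 9676 FPKM in rmMETRNL libraries and 9608 to 10167 FPKM in vehicle libraries. Groups did not overlap in 5 of the 10, against 21.5% of all genes tested, with Adgre1 and Mrc1 higher and Cd14, Cd68 and Mertk lower with rmMETRNL. An unadjusted p under 0.05 in limma was held by 3 of the 10, against 14.7% of all genes tested. Cd14, the lipopolysaccharide co-receptor gene, had 2298 ± 53.4 FPKM with rmMETRNL and 2647 ± 62.02 FPKM with vehicle (adjusted p = 0.189 in limma and 0.0468 in limma voom). The macrophage markers without overlap thus lay in both directions, and none passed adjustment in limma. Their part in the values of the genes described here was not tested. A sentence in the labels' extraction text names retinas. The 6 retina markers checked summed to 0.552 to 0.855 FPKM in rmMETRNL libraries and 0.391 to 0.591 FPKM in vehicle libraries, and 2 of them were at 0 throughout. In rmMETRNL library 3 each gene's deviation from its mean rose with gene length (Spearman correlation across genes 0.313). The other 5 libraries lay between -0.168 and -0.0212. Values without rmMETRNL library 3 are therefore given for Csf1, Csf2, Csf1r, Csf2ra and the beta chain genes, and for the pathway lists together. Single pathway genes are given with all 6 libraries only.

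No difference between rmMETRNL and vehicle passed the test in any of the 8 genes. By limma, run on log2(FPKM + 1), 0 of the 8 were called at an adjusted p of 0.05, against a background of 0% of the 9867 genes tested, and the lowest adjusted p among the 8 was 0.233. At an unadjusted p of 0.05 limma held 3 of the 8, against 14.7% of all genes tested. These were Csf2 and Csf1 with higher values with rmMETRNL (7.54% of all genes tested in that direction) and Csf2ra with lower values (7.13%). A second test, limma voom on the recovered reads, also called 0 of the 8, against 0.618% of all genes tested, 0.405% in the higher and 0.213% in the lower direction. In 3 of the 8 genes, Csf1, Csf2 and Csf1r, every rmMETRNL value lay above every vehicle value, against 10.9% of all genes tested in that direction. In 0 of the 8 did every rmMETRNL value lie below every vehicle value, against 10.6%. In whole-culture RNA, fewer cells that express a gene and less of its RNA per cell cannot be told apart.

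**Figure D1:**
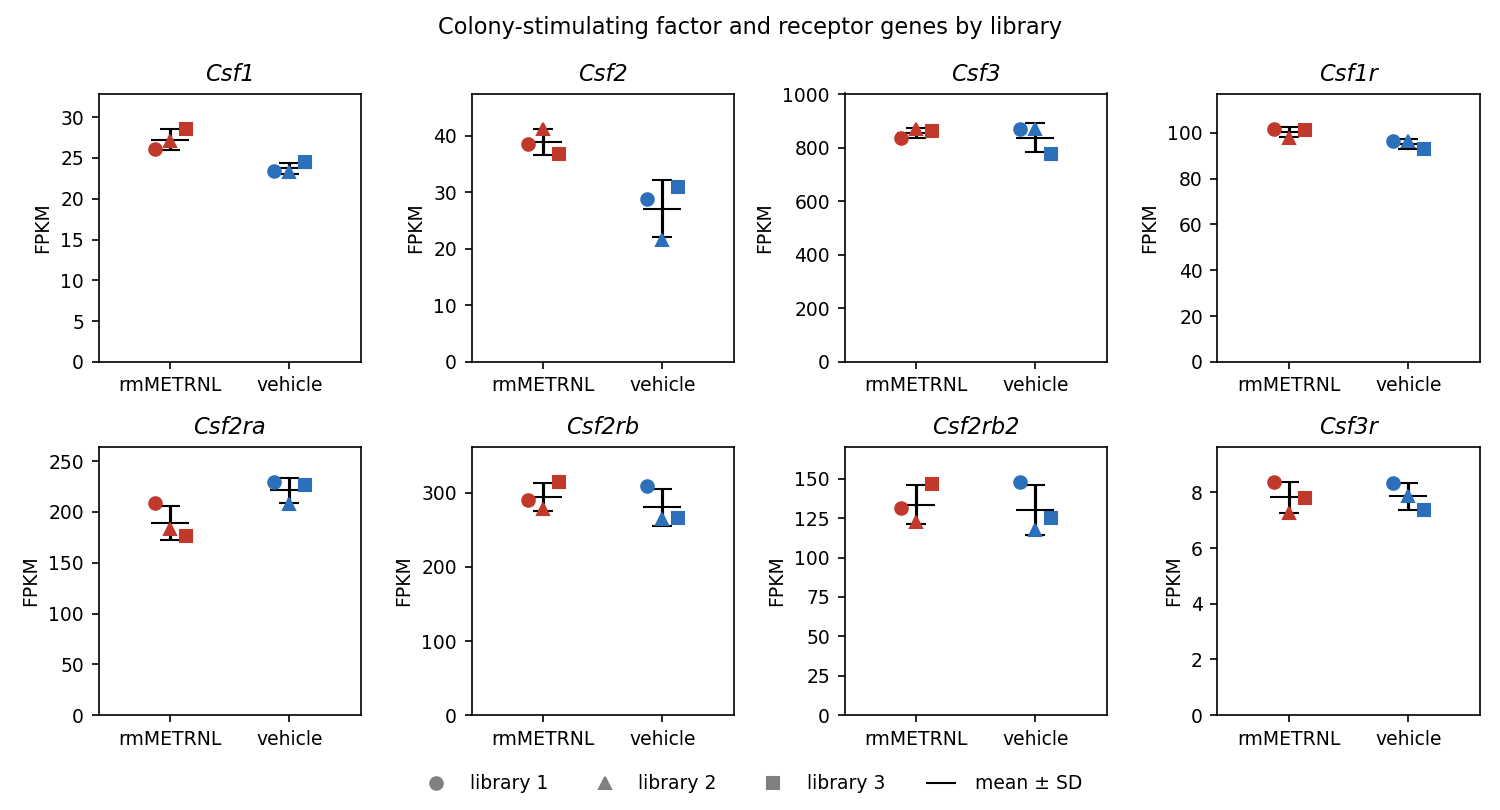
FPKM of the 8 genes in each library, rmMETRNL in red and vehicle in blue, with a black bar and whiskers for the mean ± SD of 3 libraries and an axis from 0 in each panel. The groups do not overlap for Csf1, Csf2 and Csf1r, and Csf2ra overlaps by a single pair of libraries.

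The 3 ligand mRNAs differ in their AU-rich ends, and the richest stretch of 30 bases in each 3′ UTR is shown because these elements are the known handle for mRNA decay of this family. The bases come from the longest coding GENCODE M21 transcript of each gene (GRCm38), 5′ to 3′ on the strand of the gene, and capitals mark each ATTTA, overlapping copies included. They lie at chr11:54247320-54247349 on the minus strand for Csf2, chr11:98702992-98703021 on the plus strand for Csf3 and chr3:107741096-107741125 on the minus strand for Csf1.
Csf2: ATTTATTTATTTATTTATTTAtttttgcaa
Csf3: ATTTAtctctATTTAatATTTAtgcatatt
Csf1: ATTTAaatatctATTTAaaaaataggaagc
The whole 3′ UTR of Csf2 holds 9 copies in 317 bases, that of Csf3 6 copies in 669 bases and that of Csf1 4 copies in 2111 bases. A stretch of 30 bases with 5 or more copies, as in Csf2, occurs in 0.255% of 20753 coding genes, with 3 or more, as in Csf3, in 2.55%, and with 2 or more, as in Csf1, in 18.7%. The 3′ UTR of Csf1r holds 3 copies, and those of Csf2ra, Csf2rb, Csf2rb2 and Csf3r hold 0. These are letter matches and not measured decay.

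Csf2, which encodes GM-CSF (ENSMUSG00000018916, chromosome 11, 54247271 to 54249667, GRCm38), had 38.6, 41.3 and 36.7 FPKM in rmMETRNL libraries 1, 2 and 3, against 28.9, 21.5 and 30.96 FPKM in vehicle libraries 1, 2 and 3. The lowest rmMETRNL library stood above the highest vehicle library, and vehicle library 2 was well below the other vehicle libraries. The means were 38.9 ± 2.27 FPKM with rmMETRNL and 27.1 ± 4.96 FPKM with vehicle (SD, n = 3 each), a ratio of 1.43. On the log2(FPKM + 1) scale, on which low genes appear to change less than they do, the fold change was 0.52 (SE 0.13, unadjusted p = 0.00590 and adjusted p = 0.233 in limma), larger in size than that of 97.1% of genes tested. Voom gave an adjusted p of 0.0579 in limma. These values rest on 436 to 518 reads in rmMETRNL libraries and 230 to 451 reads in vehicle libraries. The log2 fold change was 0.37 without vehicle library 2 and 0.56 without rmMETRNL library 3. An antisense gene, Gm12223, covers 12% of the 800 exon bases of Csf2 and is listed at 0 FPKM in every library.

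Csf1, which encodes M-CSF (ENSMUSG00000014599, chromosome 3, 107741048 to 107760469), had 26.1, 27.0 and 28.6 FPKM in rmMETRNL libraries 1, 2 and 3, against 23.4, 23.2 and 24.4 FPKM in vehicle libraries 1, 2 and 3. The groups did not overlap, and rmMETRNL library 3 was the highest. The means were 27.2 ± 1.251 FPKM with rmMETRNL and 23.7 ± 0.646 FPKM with vehicle. The difference on the log2 scale was 0.19 (SE 0.05; adjusted p = 0.238 in limma and 0.140 in limma voom). Without rmMETRNL library 3 it was 0.16. Csf1 rests on 1640 to 2350 reads per library and shares no 31-base word with another gene.

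Csf3, which encodes G-CSF (ENSMUSG00000038067, chromosome 11, 98701263 to 98703629), was the most abundant of the 8 genes and ranked 52 among all genes tested by mean FPKM. It had 836, 872 and 862 FPKM in rmMETRNL libraries 1, 2 and 3, against 869, 870.2 and 775 FPKM in vehicle libraries 1, 2 and 3. The groups overlapped, and vehicle library 3 was the lowest of the 6. The log2 fold change was 0.03 with an unadjusted 95% interval of -0.10 to 0.17 (adjusted p = 0.825 in limma). The estimate of 0.52 for Csf2, which was not called either, lies outside this interval and has its own interval of 0.21 to 0.83. A difference between Csf3 and Csf2 was not tested. The sign of Csf3 turned without vehicle library 3, to -0.02.

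**Figure D2:**
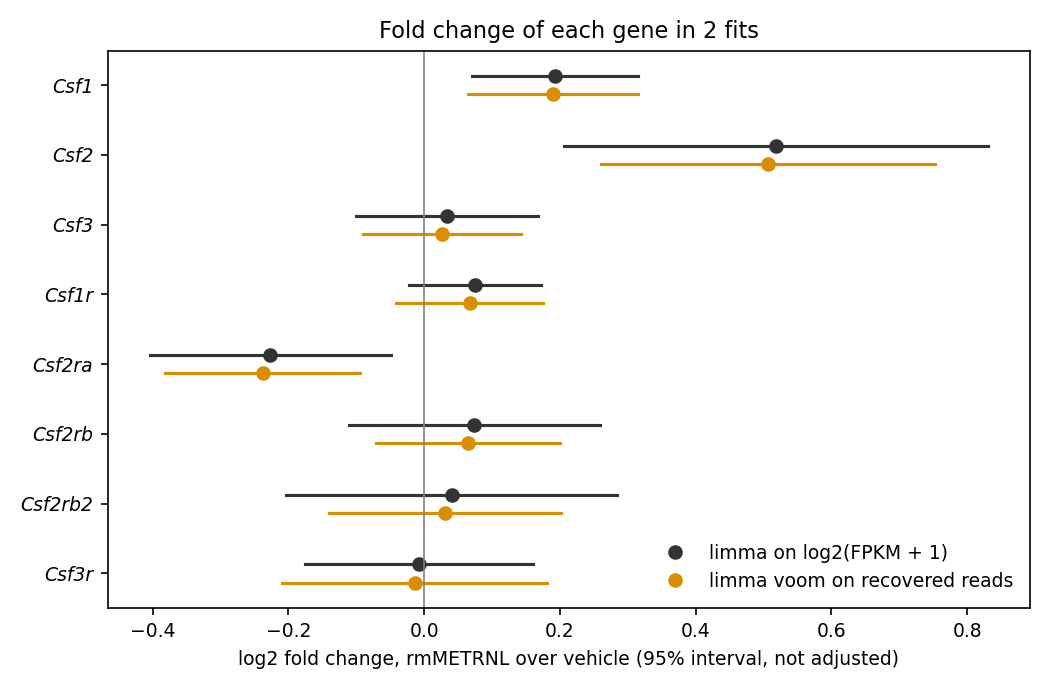
Log2 fold change of the 8 genes, rmMETRNL over vehicle, in limma on log2(FPKM + 1) (black) and in limma voom on recovered reads (orange), with lines for unadjusted 95% intervals. The intervals of Csf1 and Csf2 lie above 0 and that of Csf2ra below 0 in both fits, and none of the 8 passes after adjustment.

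Csf2ra, the alpha chain gene of the GM-CSF receptor (ENSMUSG00000059326, chromosome 19, 61224402 to 61228418), had 208, 183 and 176 FPKM in rmMETRNL libraries 1, 2 and 3, against 229.6, 207 and 227 FPKM in vehicle libraries 1, 2 and 3. The groups overlapped narrowly, as rmMETRNL library 1 stood just above vehicle library 2. The means were 189 ± 16.9 FPKM with rmMETRNL and 221 ± 12.1 FPKM with vehicle. The difference on the log2 scale was -0.23 (SE 0.07; unadjusted p = 0.01996 and adjusted p = 0.278 in limma, 0.119 in limma voom). It was -0.18 without rmMETRNL library 3 and -0.30 without rmMETRNL library 1. Of the 8 genes, the ligand Csf2 had the most positive fold change and its own alpha chain gene the most negative. This pairing was read from the values, and no link between the genes was tested. Over the 6 libraries the Pearson correlation of Csf2ra on log2(FPKM + 1) was -0.51 with Csf2 and -0.85 with Csf1.

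The beta chain genes lie close together on chromosome 15 and are near copies, so their reads are uncertain. Csf2rb (ENSMUSG00000071713, 78325752 to 78353847) and Csf2rb2 (ENSMUSG00000071714, 78282507 to 78305721) share 2505 of 2631 aligned coding bases (95.2%), with identical runs of up to 242 bases. The first 60 coding bases show how alike they are, at chr15:78335207-78335266 on the plus strand for Csf2rb and chr15:78298170-78298229 on the minus strand for Csf2rb2 (GENCODE M21, GRCm38), with the 1 differing base in capitals.
Csf2rb: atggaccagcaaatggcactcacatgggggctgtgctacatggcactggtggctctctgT
Csf2rb2: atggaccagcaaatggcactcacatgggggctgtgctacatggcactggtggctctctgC
Of the 31-base words of Csf2rb, 18.8% also occur in Csf2rb2, and 28.6% of those of Csf2rb2 occur in Csf2rb. How the authors counted reads that match both genes is not given in the sources used here.

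Csf2rb had 291, 278 and 315 FPKM in rmMETRNL libraries 1, 2 and 3, against 309.6, 265 and 266 FPKM in vehicle libraries 1, 2 and 3. Csf2rb2 had 131, 123 and 147 FPKM in rmMETRNL libraries 1, 2 and 3, against 148, 117 and 125 FPKM in vehicle libraries 1, 2 and 3. For both genes the groups overlapped, and the same libraries were high in both, rmMETRNL library 3 and vehicle library 1. The ratio of Csf2rb to Csf2rb2 in FPKM stayed between 2.14 and 2.27 in rmMETRNL libraries and between 2.09 and 2.26 in vehicle libraries. The log2 fold changes were 0.07 for Csf2rb (95% interval -0.11 to 0.26, adjusted p = 0.705 in limma) and 0.04 for Csf2rb2 (-0.20 to 0.28, adjusted p = 0.891 in limma). Without rmMETRNL library 3 the value of Csf2rb was 0.025 and that of Csf2rb2 -0.03. Without vehicle library 1 they were 0.15 and 0.14. The 2 genes summed to 428 ± 30.8 FPKM with rmMETRNL and 410.4 ± 41.2 FPKM with vehicle.

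**Figure D3:**
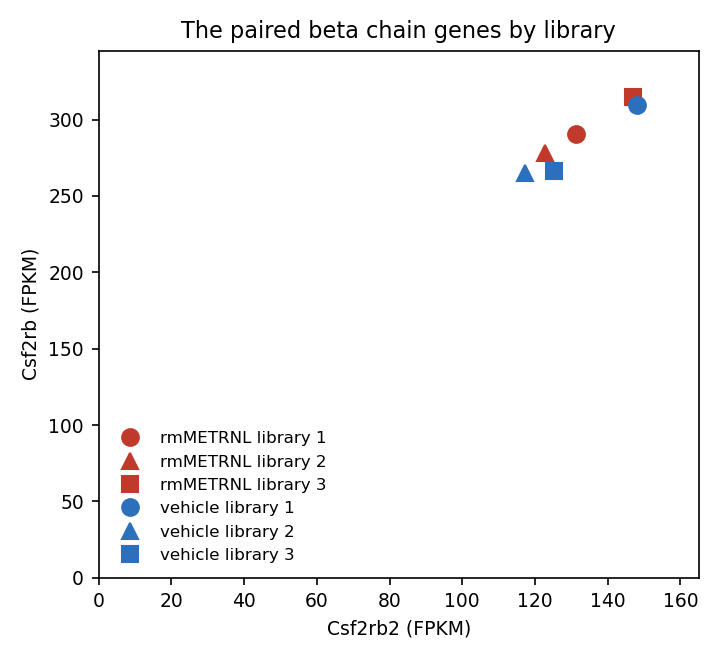
FPKM of Csf2rb against Csf2rb2 in each library, rmMETRNL in red and vehicle in blue, both axes from 0. The 6 libraries lie along a line at a ratio of 2.09 to 2.27, with rmMETRNL library 3 and vehicle library 1 at the top.

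Csf1r, the M-CSF receptor gene (ENSMUSG00000024621, chromosome 18, 61105572 to 61132149), had 102, 97.7 and 101 FPKM in rmMETRNL libraries 1, 2 and 3, against 96.4, 96.3 and 92.8 FPKM in vehicle libraries 1, 2 and 3. The groups did not overlap, but the gap between them was small, with 97.7 FPKM as the lowest rmMETRNL value and 96.4 FPKM as the highest vehicle value. The log2 fold change was 0.08 (95% interval -0.02 to 0.17, adjusted p = 0.448 in limma). Without rmMETRNL library 3 it was 0.07. Csf1r shares 15.1% of its exon bases with Hmgxb3 on the other strand, which had 9.09 to 11.8 FPKM over the 6 libraries.

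Csf3r, the G-CSF receptor gene (ENSMUSG00000028859, chromosome 4, 126024550 to 126044440), was the least abundant of the 8, at 8.38, 7.27 and 7.79 FPKM in rmMETRNL libraries 1, 2 and 3, against 8.34, 7.88 and 7.36 FPKM in vehicle libraries 1, 2 and 3. The groups overlapped over nearly their whole range, and the log2 fold change was -0.01 (95% interval -0.18 to 0.16, adjusted p = 0.973 in limma). Csf3r is a gene of neutrophils and monocytes. Of 10 neutrophil markers, 4 were above a mean of 1 FPKM, and the list summed to 196 to 213 FPKM in rmMETRNL libraries and 183 to 193 FPKM in vehicle libraries, so the sums did not overlap. S100a9, an alarmin gene also expressed by macrophages and named after its value was seen, had 34.8 ± 3.56 FPKM with rmMETRNL and 24.4 ± 0.781 FPKM with vehicle. It was the 1 of the 4 tested markers of the list whose groups did not overlap, against 21.5% of all genes tested. The part of these markers in the values of Csf3r was not tested. The other tested markers overlapped between groups, S100a8 at 86.1 ± 0.564 FPKM with rmMETRNL and 83.7 ± 4.59 FPKM with vehicle, Mmp8 at 77.03 ± 4.56 FPKM with rmMETRNL and 71.9 ± 1.56 FPKM with vehicle, and Retnlg at 6.49 ± 0.654 FPKM with rmMETRNL and 6.58 ± 1.31 FPKM with vehicle. The neutrophil surface genes Ly6g and Cxcr2 were below 0.5 FPKM in every library. Of the granule genes made by neutrophil precursors, Mpo was also below 0.5 FPKM and Elane was at 0 in every library. Csf3r shares 23.1% of its 31-base words with other genes, mostly with AC105061.2 (19.9%).

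By level, the genes ran from Csf3 through Csf2rb, Csf2ra, Csf2rb2, Csf1r, Csf2 and Csf1 to Csf3r in FPKM, a scale per length. Each gene's 6 values lay wholly above those of the next, apart from Csf2 and Csf1, whose ranges over all libraries, 21.5 to 41.3 and 23.2 to 28.6 FPKM, overlapped. In rmMETRNL libraries alone Csf2 stood above Csf1 in every library, and in vehicle library 2 it stood below. The other known ligands of these receptors were near the limit of detection. Il3 had no read in any library, which allows up to 0.357 FPKM at 3 reads in the shallowest library, and Il34, the alternative ligand of CSF1R, had 0 to 3 reads per library. Csf2 and Csf1 are also made by T cells, mast cells and fibroblasts. The markers of T and NK cells summed to 4.91 to 6.35 FPKM with rmMETRNL and 5.28 to 5.49 FPKM with vehicle. Most of this came from Gzmb, the only tested gene of that list, at 3.44 ± 0.478 FPKM with rmMETRNL and 3.55 ± 0.413 FPKM with vehicle. Those of mast cells and basophils summed to 9.46 to 11.96 FPKM with rmMETRNL and 7.67 to 12.6 FPKM with vehicle. Those of fibroblasts and mesothelial cells summed to 8.34 to 8.99 FPKM with rmMETRNL and 8.36 to 9.04 FPKM with vehicle, so these 3 sums overlapped between the groups. Of the single fibroblast markers, Col3a1 did not overlap, at 0.662 to 0.813 FPKM with rmMETRNL and 0.559 to 0.592 FPKM with vehicle. Col3a1 was below the minimum for testing. Endothelial cell markers summed to 1.59 to 2.63 FPKM with rmMETRNL and 1.62 to 2.26 FPKM with vehicle, and these sums overlapped too. B cells can also make GM-CSF, and the sums of the 5 B cell markers did not overlap, at 6.05 to 6.57 FPKM with rmMETRNL and 5.07 to 6.03 FPKM with vehicle, although no single B cell marker separated the groups. The part of these cells in the values of Csf2 and Csf1 was not tested.

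**Figure D4:**
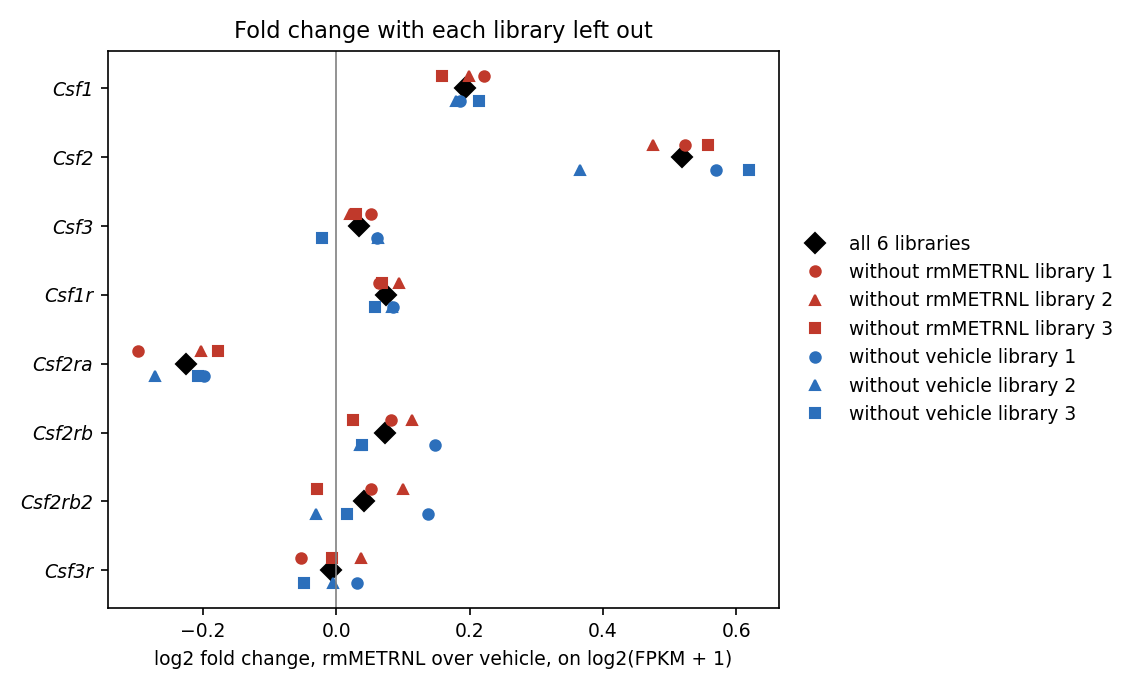
Log2 fold change of the 8 genes, rmMETRNL over vehicle, with all 6 libraries (black diamonds) and with each library left out (red where an rmMETRNL library and blue where a vehicle library was left out). Csf1, Csf2 and Csf1r stay above 0 and Csf2ra below 0, while Csf3, Csf2rb2 and Csf3r change sign.

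The start regions of Csf1 and Csf2ra are shown as those of a gene with higher and a gene with lower values with rmMETRNL whose RefSeq start is also the start in the table. Each runs from 250 bases before to 50 bases after the start (RefSeq, GRCm38.p6), 5′ to 3′ on the strand of the gene, at chr3:107760420-107760719 and chr19:61228369-61228668, both on the minus strand. Capitals mark an NF-kappaB motif in Csf1, and a cAMP response element (TGACGTCA) and the PU.1 core GAGGAA, present as 2 adjoining copies, in Csf2ra. PU.1 is the transcription factor of the myeloid lineage.
Csf1: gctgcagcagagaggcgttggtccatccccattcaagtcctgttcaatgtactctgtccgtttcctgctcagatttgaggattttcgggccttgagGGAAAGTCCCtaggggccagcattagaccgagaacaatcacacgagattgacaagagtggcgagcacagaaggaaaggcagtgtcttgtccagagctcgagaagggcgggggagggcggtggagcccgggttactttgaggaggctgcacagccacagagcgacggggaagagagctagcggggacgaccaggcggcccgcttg
Csf2ra: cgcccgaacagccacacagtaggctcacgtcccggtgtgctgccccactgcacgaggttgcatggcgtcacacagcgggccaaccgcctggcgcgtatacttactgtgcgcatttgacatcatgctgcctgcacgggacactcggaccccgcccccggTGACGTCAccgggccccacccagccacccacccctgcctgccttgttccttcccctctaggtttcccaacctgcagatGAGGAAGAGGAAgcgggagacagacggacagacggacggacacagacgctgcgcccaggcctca
Both strands were searched. The NF-kappaB motif occurs in 8.46% of 32851 RefSeq start regions of this length, the cAMP response element in 1.79% and GAGGAA in 28.3%. The region of Csf1 holds neither of the other motifs named here, and that of Csf2ra holds no NF-kappaB match. Among regions not shown, that of Csf3r (log2 fold change -0.01) holds both an NF-kappaB match and GAGGAA. That of Csf2rb2 (0.04) holds GAGGAA in 2 places. The RefSeq region searched for Csf2 (0.52) holds no NF-kappaB match, TGACGTCA or GAGGAA, but it stops short of the start in the table. AP-1 (TGANTCA), C/EBP (TTNCNNAA) and GAS (TTCNNNGAA) motifs were also searched and are not marked. AP-1 (7.81% of all regions) had no match. C/EBP (40.7%) matched in the regions of Csf2, Csf2ra and Csf2rb2, and GAS (8.30%) in that of Csf2rb2. No link between motif and direction was tested. The RefSeq start of Csf2 lies 232 bases upstream of that in the table, so its region is not shown. The bases just before the table's start of Csf2 were not searched, and absence of a motif there cannot be read from this. The RefSeq start of Csf3r lies 109 bases from that in the table.

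Around the 8 genes, 8 lists of pathway genes held 124 genes, of which 101 were tested. Limma called 0 of the 101 at an adjusted p of 0.05 (lowest 0.189), as over all genes. At an unadjusted p of 0.05 it held 18 of them, against 14.7% of all genes tested. Of the 18, 16 were higher with rmMETRNL (7.54% of all genes tested in that direction) and 2 lower (7.13%). Without rmMETRNL library 3, limma held 11 of the 101 at an unadjusted p of 0.05, against 1028 of all 9867 genes tested. The splits by direction are given with all 6 libraries only. Voom also called 0 of the 101 at an adjusted p of 0.05. The median log2 fold change was 0.03 over the 101 genes and -0.01 over all genes tested. In 24.8% of the 101 the groups did not overlap, against 21.5% of all genes tested. These were 22 genes with rmMETRNL on top (10.9% of all genes tested) and 3 with vehicle on top (10.6%). The lists were chosen with earlier results of these data known, and this split by direction was not tested.

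Below the receptors, 17 of 26 tested kinases, STATs, adaptors and phosphatases had positive values, with a median of 0.06. Groups did not overlap in 8 of the 26, against 21.5% of all genes tested, 7 with rmMETRNL on top (10.9% of all genes tested) and 1 with vehicle on top (10.6%). Stat3, the transcription factor used by the G-CSF receptor, had 45.4 ± 2.39 FPKM with rmMETRNL and 38.8 ± 0.650 FPKM with vehicle (log2 fold change 0.22, adjusted p = 0.219 in limma). Pik3r1, a regulatory subunit of PI3-kinase, had 4.803 ± 0.129 FPKM with rmMETRNL and 4.17 ± 0.0727 FPKM with vehicle, and Dok2, an adaptor that restrains myeloid growth factor signals, had 8.63 ± 0.582 FPKM with rmMETRNL and 10.1 ± 0.797 FPKM with vehicle. The GM-CSF transducers Stat5a (10.2 ± 0.519 FPKM with rmMETRNL and 9.13 ± 0.340 FPKM with vehicle) and Stat5b (12.01 ± 0.338 FPKM with rmMETRNL and 10.8 ± 0.352 FPKM with vehicle), named for their role after their values were seen, also did not overlap between groups. The kinase gene Jak2 did overlap, at 28.2 ± 2.46 FPKM with rmMETRNL and 27.3 ± 0.583 FPKM with vehicle.

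Of 15 tested STAT target and feedback genes, 8 had positive and 7 negative values, with a median of 0.03. Groups did not overlap in 5 of the 15, against 21.5% of all genes tested. In 4 rmMETRNL was on top (10.9% of all genes tested) and in 1 vehicle was on top (10.6%). The 1 was Socs1, at 1.91 ± 0.268 FPKM with rmMETRNL and 2.36 ± 0.162 FPKM with vehicle. Cish (log2 fold change -0.13) and Socs2 (-0.06) overlapped between groups. Socs3, the feedback inhibitor of G-CSF receptor signals, had 142 ± 7.24 FPKM with rmMETRNL and 119.6 ± 9.92 FPKM with vehicle (log2 fold change 0.25, adjusted p = 0.247 in limma). The survival genes Mcl1 (485 ± 4.71 FPKM with rmMETRNL and 439 ± 10.03 FPKM with vehicle) and Bcl2l1 (29.5 ± 1.61 FPKM with rmMETRNL and 26.4 ± 0.533 FPKM with vehicle) had the other smallest p-values. Of 13 tested genes known to respond to GM-CSF in macrophages, 7 had positive and 6 negative values, with a median of 0.02. Irf4, a transcription factor induced by GM-CSF, had 2.59 ± 0.156 FPKM with rmMETRNL and 1.97 ± 0.250 FPKM with vehicle, the fatty acid binding protein gene Fabp4 30.1 ± 0.107 FPKM with rmMETRNL and 27.4 ± 2.21 FPKM with vehicle, and the tetraspanin gene Cd9 519 ± 10.1 FPKM with rmMETRNL and 484 ± 26.9 FPKM with vehicle.

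**Figure D5:**
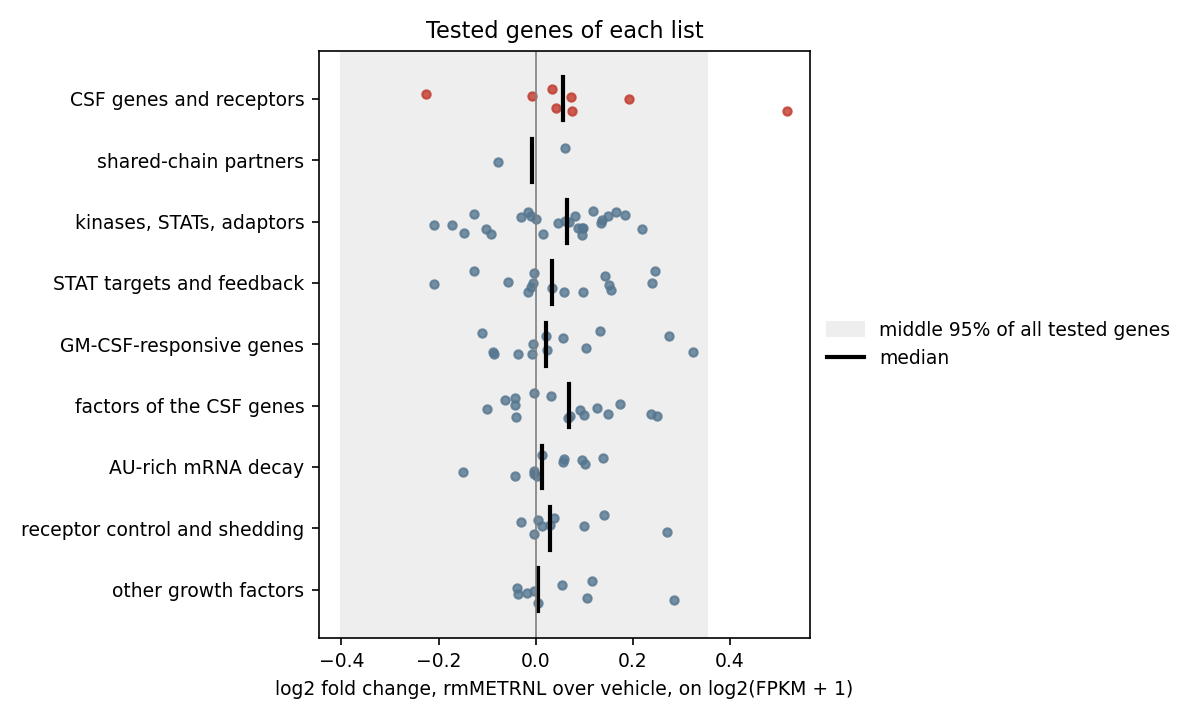
Log2 fold change of every tested gene of the 8 colony-stimulating factor and receptor genes (red) and of the pathway lists around them (blue), with a black bar for each median and a grey band for the middle 95% of all tested genes, from -0.40 to 0.35. Csf2 at 0.52 is the only point outside the band.

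Among 16 tested transcription factors of the NF-kappaB, AP-1, C/EBP, NFAT and ETS families, which act on the ligand genes, 10 had positive values and the median was 0.07. Jun had 72.5 ± 1.92 FPKM with rmMETRNL and 60.9 ± 3.32 FPKM with vehicle, Rel, an NF-kappaB subunit, had 37.2 ± 2.42 FPKM with rmMETRNL and 31.4 ± 1.55 FPKM with vehicle, and Junb had 1025 ± 14.7 FPKM with rmMETRNL and 911 ± 62.2 FPKM with vehicle. Of 11 tested factors of cytokine mRNA stability and decay, 7 had positive values and the median was 0.01. Ybx1, which binds and stabilises such mRNAs, had 206 ± 9.61 FPKM with rmMETRNL and 228 ± 5.25 FPKM with vehicle, Zc3h12a, an endonuclease of cytokine mRNAs, had 103 ± 4.79 FPKM with rmMETRNL and 93.8 ± 3.58 FPKM with vehicle, and Rc3h1 had 11.3 ± 0.486 FPKM with rmMETRNL and 10.5 ± 0.794 FPKM with vehicle. Zfp36, the decay factor best known for acting on Csf2 mRNA, had a log2 fold change of -0.004.

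Of 9 tested factors of receptor gene expression and shedding, 7 had positive values, with a median of 0.03. Adam17, the protease that sheds CSF1R and membrane-bound CSF1, had 39.0 ± 2.60 FPKM with rmMETRNL and 32.1 ± 2.11 FPKM with vehicle (log2 fold change 0.27, adjusted p = 0.238 in limma), with no overlap between groups. Cebpa had 14.04 ± 0.883 FPKM with rmMETRNL and 12.7 ± 1.12 FPKM with vehicle, and Fli1 4.21 ± 0.139 FPKM with rmMETRNL and 3.87 ± 0.367 FPKM with vehicle. Of 21 other blood cell growth factor and receptor genes, 9 were tested and 5 had positive values, with a median of 0.004. Lif, a cytokine of the interleukin-6 family, had 44.6 ± 5.45 FPKM with rmMETRNL and 36.4 ± 3.29 FPKM with vehicle, Il7r had 74.7 ± 3.26 FPKM with rmMETRNL and 68.9 ± 3.43 FPKM with vehicle, and Il6st 4.44 ± 0.569 FPKM with rmMETRNL and 4.04 ± 0.0871 FPKM with vehicle. Of the 7 partner ligands and receptors, Sdc1 (57.1 ± 0.223 FPKM with rmMETRNL and 54.7 ± 2.05 FPKM with vehicle) and the interleukin-3 receptor alpha chain gene Il3ra (11.8 ± 1.55 FPKM with rmMETRNL and 12.5 ± 1.57 FPKM with vehicle) were tested, and their groups overlapped.

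The genes most like each ligand over the 6 libraries were taken from 4917 coding genes whose mean reached 5 FPKM, by Pearson correlation of log2(FPKM + 1), as a description. For Csf1 these were Rnf185 (0.995), Cpeb4 (0.995) and Hipk1 (0.994). For Csf2 they were Tmem37 (0.989), Noct (0.981) and H2-Q4 (0.980), and for Csf3 Mark2 (0.988), Slc35a4 (0.971) and Cdk6 (0.957). The 6 points share depth and the split into groups, and correlations this high arise by selection among many genes.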

How the data were processed

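The authors deposited 1 table of FPKM values (fragments per kilobase of gene, scaled to the library's total) with a column for each of 6 libraries and each gene's length, position and biotype. Per the labels' protocols, 1 ug of total RNA went into each library, prepared with a TruSeq kit. Builds GRCm38 and mm10 are named per the submitters' processing notes. No aligner, counter, annotation release or strand setting is named in these sources, so reads from overlapping genes on opposite strands cannot be assigned with certainty. Start and end of 53499 of 54409 genes matched by identifier (98.3%) equal those of GENCODE M21.

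Testing covered the 9867 genes whose mean reached 1 FPKM. Limma 3.58.1 (R 4.3.3) was run with its trend option on log2(FPKM + 1), two-sided, and p-values were adjusted by Benjamini-Hochberg over all of them, with a threshold of 0.05. FPKM times length came out as whole reads for 100% of values (tolerance 0.05 reads), and these reads entered limma voom. On simulated data for this comparison (9714 genes), limma called 18.4% of 49 genes with a 1.25-fold change and 50.0% of 48 at 1.5-fold. Voom called 22.4% and 66.7%. Each gene was drawn independently, without shared library effects such as the length trend, so these rates need not hold for the real libraries. Sequences were read from GENCODE M21 and RefSeq (GRCm38.p6, 5 of the 8 genes matched in its start regions) and the beta chains aligned with Biopython 1.88.

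The 8 genes and the lists were chosen with earlier results of these data known. Named are all 8 genes, the 3 tested genes with the smallest p of each pathway list, the 3 genes most like each ligand, at most the 2 most abundant genes of a marker list, and genes that share exons or sequence with a member. Stat5a, Stat5b, Jak2, Socs1, Cish, Socs2, Zfp36, Il3, Il34 and further macrophage and neutrophil markers are named beyond this rule, after their values were seen. Alternatives were other pseudocounts (0.1 and 0.01), filters (none and 5 FPKM), scalings, variance models, a replicate block, an adjusted p of 0.10 and leaving out each library. Voom with the block and without each library were added after seeing the data.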

Additional observations from a re-analysis of the deposited data

How the results depend on the processing

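None of the 8 genes and none of the pathway genes passed under any of the 25 alternatives run, with adjusted p-values in limma or limma voom of 0.0521 or more for the 8. Over all genes tested the count of 0 became 5 with no filter on low values, 1 after rescaling to TPM, 1 with array weights, 61 with voom on the recovered reads and 53 with voom and the replicate block. Leaving out each library gave 0 in limma and in voom 51, 3 and 24 without rmMETRNL libraries 1, 2 and 3, and 34, 39 and 13 without vehicle libraries 1, 2 and 3. With the replicate block, limma called 0 of all genes tested. Same-numbered libraries did not deviate together (correlations across genes of -0.0212, 0.0074 and -0.0454), so the numbers were not taken to pair the samples. Csf1, Csf2, Csf1r and Csf2rb stayed positive and Csf2ra negative in 25 of 25 alternatives, Csf2 between 0.37 and 0.62 on the log2 scale. Csf3r turned positive after rescaling to TPM (0.012) and with quantile normalization (0.0035). With each library left out, limma gave Csf3r -0.054 to 0.037, Csf2rb2 -0.031 to 0.14 and Csf3 -0.022 to 0.062. In voom the sign turned for Csf3r without rmMETRNL library 2 (0.041) and vehicle library 1 (0.032), for Csf2rb2 without rmMETRNL library 3 (-0.037) and vehicle library 2 (-0.036), and for Csf3 without vehicle library 3 (-0.034). The cause was not tested. Depth limits Csf2 and Csf3r most, with 230 to 518 and 380 to 484 reads per library.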

Other observations

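The ratio of both beta chain genes to Csf2ra was looked at after the values were seen. It includes Csf2rb2, whose product works with the interleukin-3 receptor, so it is not the balance of GM-CSF receptor chains. The summed FPKM of Csf2rb and Csf2rb2 was 2.03, 2.19 and 2.62 times that of Csf2ra in rmMETRNL libraries 1, 2 and 3, against 1.99, 1.84 and 1.72 times in vehicle libraries 1, 2 and 3. The groups did not overlap, and rmMETRNL library 3 was the highest. In that library deviations rose with gene length (Spearman correlation 0.313). Csf2ra is the shorter gene, with 1849 bases against 7277 for Csf2rb and 4740 for Csf2rb2. The near-identical coding sequences of the beta chain genes also limit how their reads can be assigned. No test was made, as the ratio was chosen from these values.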
